A study of Oryctolagus cuniculus with 16 samples.

Results

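Genes of developing red blood cells were followed in bone tissue around implants in the rabbit tibia, 10 days after surgery. The set held 7 genes chosen by symbol: SLC4A1, SPTB, EPB42, AHSP, ALAS2, KLF1 and GATA1. Of these, 6 had a row in the gene table of 29587 genes, and KLF1 had none and is not analysed here. All 6 passed the filter on low counts. AHSP reached 10 counts only in Turned Ti replicate 1 and SLA Ti replicates 1, 2 and 4, so that it was kept through titanium. GATA1 reached 10 counts in every SLA Ti library, in 2 Turned Ti libraries and in 1 Sham library, and in no Turned Cu library.

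Erythroid precursors mature in the bone marrow, where erythropoietin and the transcription factors GATA1 and KLF1 switch on the genes of the red cell. Late precursors make large amounts of haemoglobin and haem and build a membrane skeleton of spectrin that is tied to the anion exchanger band 3. Mature red cells of mammals have lost the nucleus and most RNA, so that these transcripts mark marrow precursors and young reticulocytes more than circulating blood. In bulk tissue, fewer cells of a type and less RNA per cell cannot be told apart.

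The 4 rabbits had 4 holes each, 1 near the knee and 1 farther down in either tibia. A hole carried the label Sham, with no implant named, or held an implant of turned commercially pure titanium (Turned Ti), of sandblasted, large-grit and acid-etched titanium (SLA Ti) or of turned copper (Turned Cu). No rabbit lacked a kind of site, so that each group held 4 libraries from separate animals, and replicate numbers are rabbit numbers. The labels used here state no strain, sex or age. A curette collected the tissue lining the hole once the implant was out, and total RNA was sequenced. Libraries held 8539984 to 20406474 counts, with 965804 to 3960681 of them on protein-coding nuclear genes. Ribosomal RNA took 0.349% to 65.3% of a library. Transcripts of the mitochondrial genome, its ribosomal RNA included, took 59% to 93.9% of the rest. The highest shares were in Turned Cu replicates 2 and 4 (93.9% and 92.6%). Turned Cu libraries held 988967 to 1893841 protein-coding counts, and the lowest library was Sham replicate 2. Genes with at least 10 counts numbered 7445 to 8362 in Turned Cu and 8320 to 11358 in the other groups. The part of depth and library quality in the copper differences was not tested. Levels are given as CPM, counts scaled to the TMM-adjusted library size, and differences as log2 values ± SE from edgeR.

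Coordinates are those of the gene table, for which no build is named in the labels or headers used here. SLC4A1 (ENSOCUG00000004499) lies on chromosome 19 from 44560251 to 44573628, and its gene model overlaps that of SLC25A39 (ENSOCUG00000006447) on the same strand. How reads in the overlap were counted is not known. EPB42 (ENSOCUG00000017459) lies on chromosome 17 from 29060886 to 29079853. ALAS2 (ENSOCUG00000013603) and GATA1 (ENSOCUG00000025597) lie on chromosome X, from 36428299 to 36446204 and from 33450832 to 33457631. SPTB (ENSOCUG00000000292) lies on scaffold GL018857 from 461232 to 540750, and AHSP (ENSOCUG00000025722) on scaffold GL018752 from 799320 to 799840. The gene models of these 5 overlap no other gene of the table.

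Mean CPM of each member was highest in SLA Ti, and that of each member but AHSP was lowest in Turned Cu, with a wide spread between rabbits. In rabbit 3 the members summed to 11.2 CPM around copper and 3.25 CPM in Sham. The 6 members summed to 3.25 to 80.7 CPM in Sham, 9.90 to 361 CPM in Turned Ti, 22.2 to 398 CPM in SLA Ti and 1.89 to 36.5 CPM in Turned Cu. Levels of different genes can be compared only per length, and by deposited TPM the highest member was ALAS2 in 14 of 16 libraries. SLC4A1 had the highest TPM in Turned Ti replicate 4 and AHSP in Turned Cu replicate 4. Mean TPM in SLA Ti was 86.5 ± 56.3 for ALAS2, 37.2 ± 32.1 for SLC4A1, 18.7 ± 17.5 for AHSP, 13.1 ± 11.0 for EPB42, 12.6 ± 12.6 for SPTB and 4.05 ± 4.47 for GATA1 (SD, n = 4). The spread between rabbits within SLA Ti was as large as most distances between neighbours in this order.

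**Figure D1:**
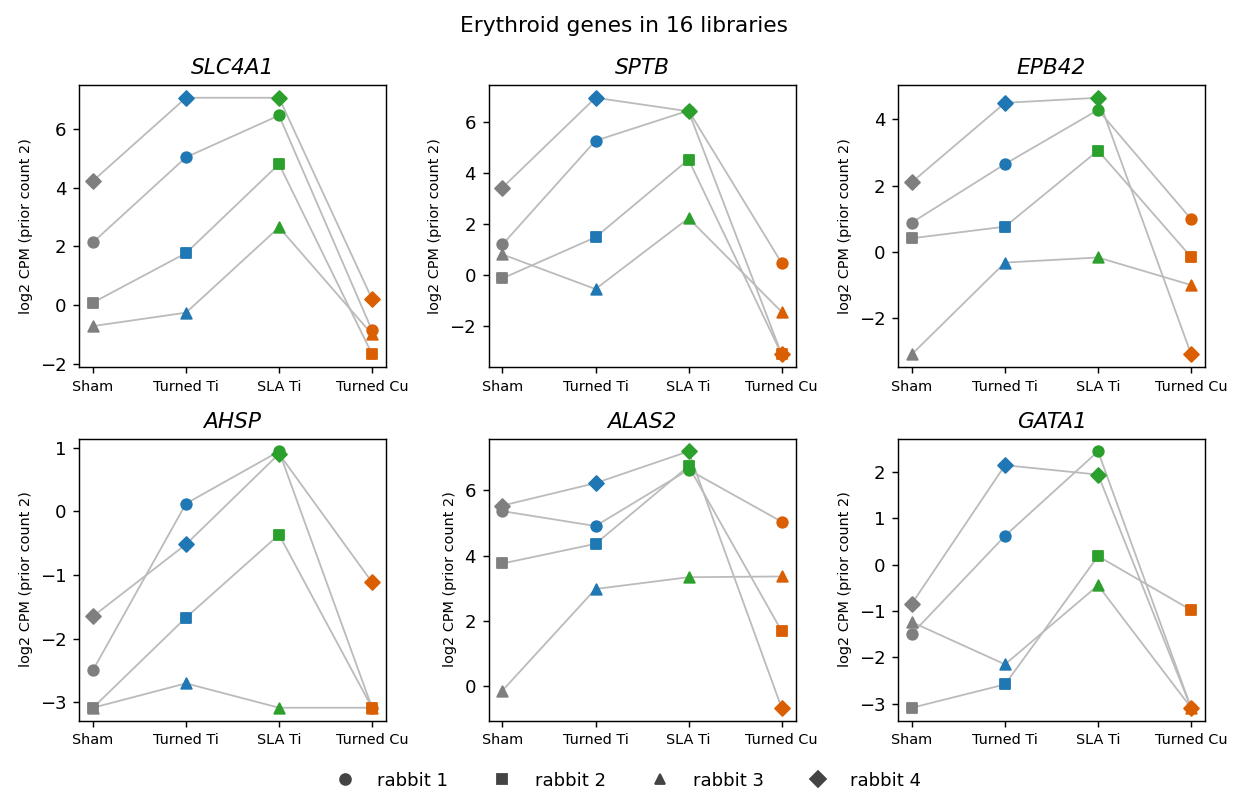
Level of each member as log2 CPM (prior count 2) in the 16 libraries, by group. Marker shape gives the rabbit, and grey lines join the 4 libraries of a rabbit. SLC4A1 lies below every other library of the same rabbit in Turned Cu, while ALAS2 does not in rabbits 1 and 3.

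SLC4A1 encodes band 3, the anion exchanger of the red cell membrane, to which the spectrin skeleton is anchored. In Turned Cu it had 0.431, 0.195, 0.382 and 1.03 CPM in replicates 1 to 4, from 3, 1, 3 and 6 reads. Sham libraries held 4.29, 0.942, 0.490 and 18.7 CPM. Every rabbit had less SLC4A1 at its copper site than at its Sham site, although the 2 groups overlapped. Turned Ti libraries held 32.8, 3.30, 0.717 and 134 CPM, and SLA Ti libraries held 88.5, 27.9, 6.17 and 134 CPM. The lowest SLA Ti library thus stood above every copper library, and the highest library of Turned Ti was 188-fold above its lowest. SLC4A1 fell by 6.96 ± 1.66 on the log2 scale in Turned Cu against SLA Ti (125-fold, edgeR adjusted p = 0.00526). Against Turned Ti the log2 difference was -6.37 ± 1.63 (82.9-fold lower, edgeR adjusted p = 0.00486). Against Sham the difference was -3.60 ± 1.55 and did not pass (adjusted p = 0.0712). The overlapping gene SLC25A39 had 11.3 to 19.3 CPM in the Turned Cu libraries, where SLC4A1 was near 0.

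SPTB encodes the beta chain of the red cell spectrin, which is also made in muscle. Its level in Turned Cu was 1.29, 0, 0.255 and 0 CPM in replicates 1 to 4. Sham libraries held 2.2, 0.807, 1.65 and 10.8 CPM. Copper was below Sham in every rabbit, but Turned Cu replicate 1 lay above Sham replicate 2. Turned Ti libraries held 38.8, 2.71, 0.574 and 125 CPM and SLA Ti libraries 88.2, 23.2, 4.63 and 86.6 CPM. Turned Ti replicate 3 lay below Turned Cu replicate 1, while SLA Ti lay above all copper libraries. SPTB fell by 6.90 ± 1.64 on the log2 scale in Turned Cu against SLA Ti (adjusted p = 0.00523). Against Turned Ti the log2 difference was -6.62 ± 1.63 (adjusted p = 0.00373), and the difference from Sham was -3.24 ± 1.56 (adjusted p = 0.106).

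EPB42 encodes protein 4.2, which binds band 3 and ankyrin below the membrane. It had 1.87, 0.781, 0.382 and 0 CPM in Turned Cu and 1.73, 1.21, 0 and 4.18 CPM in Sham. Copper and Sham overlapped, and copper was the lower of the 2 sites in 2 of 4 rabbits. Turned Ti libraries held 6.14, 1.57, 0.681 and 22.4 CPM and SLA Ti libraries 19.3, 8.19, 0.771 and 24.9 CPM. Copper was below both titanium sites in every rabbit, although the groups overlapped through rabbit 3 and, for Turned Ti, rabbit 2. EPB42 fell by 4.10 ± 1.30 on the log2 scale in Turned Cu against SLA Ti (adjusted p = 0.0246). Against Turned Ti the difference was -3.29 ± 1.29, with an adjusted p of 0.050 that lay just above the threshold, and against Sham -1.25 ± 1.30 (adjusted p = 0.469).

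AHSP encodes a chaperone that holds free alpha haemoglobin until it pairs with the beta chain. Its gene is short and few reads fell on it. Turned Cu libraries held 0, 0, 0 and 2 reads, Sham libraries 1, 0, 0 and 5, Turned Ti libraries 30, 4, 1 and 7 and SLA Ti libraries 47, 20, 0 and 23. SLA Ti replicate 3 had none, so that SLA Ti and Turned Cu overlapped in spite of their totals of 90 and 2 reads. Relative to the scaled library sizes SLA Ti was 13.0 times Turned Cu, with an exact 95% interval of 3.5 to 109 that covers counting error only. The fitted difference of -3.60 ± 1.45 in Turned Cu against SLA Ti did not pass (adjusted p = 0.0667), but it passed without SLA Ti replicate 3 (0.0160) or Turned Cu replicate 4 (0.0456). AHSP in Sham and Turned Cu was not distinguishable at this depth, with Sham at 1.18 times Turned Cu by pooled reads (0.211 to 12.0). By mean CPM Sham was the lower of the 2, at 0.0652 against 0.0861 in Turned Cu.

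ALAS2 encodes the erythroid form of aminolevulinate synthase, the enzyme that starts haem synthesis in red cell precursors. Turned Cu libraries held 32.9, 3.12, 10.2 and 0.516 CPM and Sham libraries 41.1, 13.5, 0.796 and 46.3 CPM. Turned Cu was the higher of these 2 sites in rabbit 3, and the groups overlapped. Turned Ti libraries held 29.9, 20.5, 7.78 and 74.6 CPM and SLA Ti libraries 99.2, 107, 10.0 and 147 CPM. In rabbit 3 the copper site, at 10.2 CPM, was level with the SLA Ti site, at 10.0 CPM. ALAS2 differed by -2.95 ± 1.12 between Turned Cu and SLA Ti (adjusted p = 0.0531), by -1.49 ± 1.06 between Turned Cu and Turned Ti (adjusted p = 0.282) and by -1.12 ± 1.06 between Turned Cu and Sham (adjusted p = 0.421). None of the 3 passed. The difference from SLA Ti did pass with DESeq2, without the filter, with rabbit and end of the tibia in the model and with only these groups fitted, and in the authors' deposited table it had q = 0.0146. It also passed without Sham replicate 3 (adjusted p = 0.0328), Turned Ti replicate 4 (0.0481), SLA Ti replicate 3 (0.0276) or Turned Cu replicate 1 (0.0259). The difference from SLA Ti did not pass with RLE scaling or without ribosomal and mitochondrial genes. Nor did it pass with rabbit alone as a block (edgeR adjusted p = 0.0791).

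Turned Cu thus held ALAS2 transcripts with very few of SLC4A1, a ratio that was looked at after the values were seen. ALAS2 had 229, 16, 80 and 3 reads in Turned Cu replicates 1 to 4, beside 3, 1, 3 and 6 of SLC4A1. The log2 ratio of ALAS2 to SLC4A1 reads, with 0.5 added to each, was 6.04, 3.46, 4.52 and -0.89 in Turned Cu. It was 0.17, 1.94, 0.70 and 0.13 in SLA Ti. Copper replicates 1, 2 and 3 lay above every SLA Ti library and replicate 4 below. Turned Ti replicates 2 and 3 (2.63 and 3.41) and Sham replicates 1 and 2 (3.25 and 3.74) were near or above copper replicate 2. The mean difference from SLA Ti was 2.55, with a two-sided exact permutation p of 0.171 (0.514 after adjustment over 6 pairs of groups). It was 2.02 from Turned Ti (exact permutation p = 0.257) and 1.04 from Sham (exact permutation p = 0.543, higher in 2 of 4 rabbits). The smallest p that 4 against 4 libraries can give is 0.0286.

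**Figure D2:**
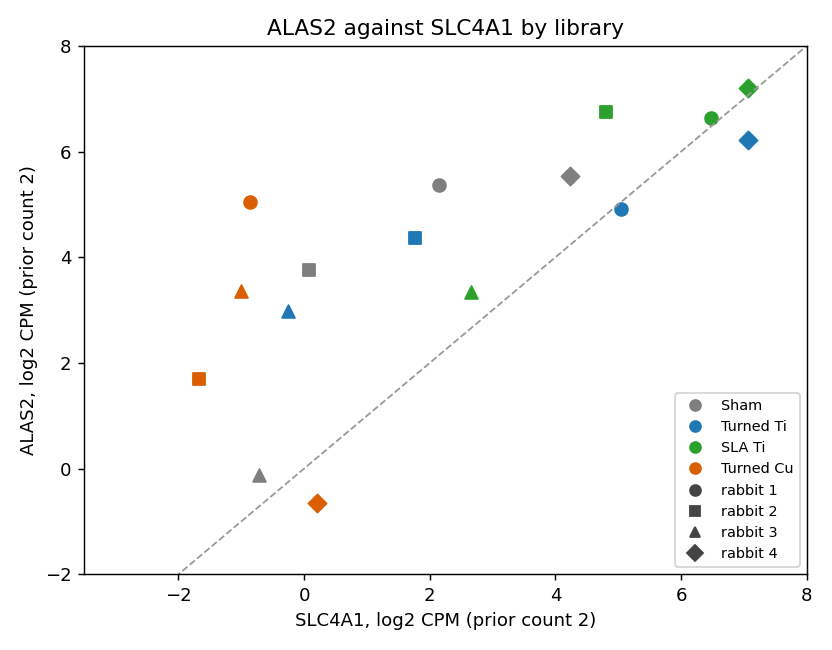
ALAS2 against SLC4A1 in each library, both as log2 CPM (prior count 2), with equal CPM on the dashed line. CPM is not scaled to gene length. Colour gives the group and marker shape the rabbit. Turned Cu replicates 1 to 3 lie far above the line and replicate 4 below it.

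GATA1 encodes the transcription factor that commits progenitors to the erythroid line and is also made in megakaryocytes, mast cells and eosinophils. Turned Cu libraries held 0, 2, 0 and 0 reads, Sham libraries 4, 0, 5 and 11, Turned Ti libraries 44, 1, 3 and 52 and SLA Ti libraries 139, 31, 12 and 49. In CPM the SLA Ti libraries, from 0.617 to 5.33, lay above all Sham libraries, from 0 to 0.442, and above all Turned Cu libraries, from 0 to 0.390. Of all genes 4.05% lay wholly higher in SLA Ti than in Sham. GATA1 fell by 4.94 ± 1.5 on the log2 scale in Turned Cu against SLA Ti (adjusted p = 0.0194). Against Turned Ti the log2 difference was -4.02 ± 1.55 (adjusted p = 0.0466). With 2 copper reads against 231 in SLA Ti, the ratio of levels was 33.4 with an exact 95% counting interval of 9.14 to 278. Against Sham the difference was -1.71 ± 1.77 (adjusted p = 0.466).

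In Turned Cu against SLA Ti, 4 of the 6 members fell: SLC4A1, SPTB, EPB42 and GATA1. Of all 11617 genes tested, 15.7% fell and 15.3% rose in this comparison (31.0% in all), and the median log2 difference was -4.52 over the members and -0.02 over all genes. Only ALAS2 reached 10 counts in more than 1 copper library (3 of 4), and the other 5 members entered the test through the groups where they were high, mainly titanium. The counts and medians of members are therefore a description. The groups did not overlap, with copper lower, for SLC4A1, SPTB and GATA1, as for 14.6% of all genes (13.4% lay wholly higher). Copper was lower than SLA Ti in all 4 rabbits for these 3 and EPB42, as for 23.8% of all genes. SLC4A1 and SPTB passed without any 1 library. EPB42 did not pass without SLA Ti replicate 4 (adjusted p = 0.0559) or without any 1 of Turned Cu replicates 2 to 4 (0.0545, 0.0630 and 0.0567), nor GATA1 without SLA Ti replicate 1 (0.0521) or Turned Cu replicate 1 (0.0505). With rabbit as a block AHSP passed too (-3.63 ± 0.95, adjusted p = 0.00986), where 15.5% of all genes fell and 16.0% rose (31.5% in all).

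Beside Turned Ti, 3 of the 6 members fell in Turned Cu: SLC4A1, SPTB and GATA1. GATA1 reached 10 counts in 2 Turned Ti libraries and 0 Turned Cu libraries, so this count is a description as well. Of all genes 19.6% fell and 21.1% rose (40.7% in all), and the medians were -3.65 over the members and -0.10 over all genes. With rabbit as a block, where 19.3% of all genes fell and 20.6% rose (39.9% in all), EPB42 passed (-2.62 ± 0.84, adjusted p = 0.0220) and GATA1 did not (-3.37 ± 1.35, adjusted p = 0.0594). GATA1 also did not pass without Turned Ti replicate 1 or 4 (adjusted p = 0.0511 and 0.137). Nor did it pass with Turned Cu replicate 1, 3 or 4 left out (0.0910, 0.0917 and 0.0815). EPB42 passed when any of 9 libraries was left out. Both passed with RLE scaling, DESeq2, no filter, and no ribosomal and mitochondrial genes. With block and end of the tibia EPB42 passed and GATA1 did not. In the authors' deposited table q was 0.00933 for EPB42 and 0.0474 for GATA1, where 15.7% of genes had a q under 0.05. SLC4A1, SPTB, EPB42 and AHSP were lower around copper in all 4 rabbits, as were 23.7% of all genes. With only these 2 groups in the fit 4 members were tested. SLC4A1, SPTB and EPB42 were then called and GATA1 was not, beside 1914 genes called lower and 1882 higher.

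In Turned Cu against Sham, 0 of the 6 members passed with group means alone, where 19.6% of all genes fell and 23.2% rose (42.8% in all). This balance turned with scaling, from 2273 genes lower and 2695 higher to 2718 and 2405 with RLE and 2974 and 2541 with DESeq2. SLC4A1 alone had an unadjusted p under 0.05, and it passed without Sham replicate 3 (adjusted p = 0.0393) or without Turned Ti replicate 3 or 4 (0.0417 and 0.0376). With rabbit as a block SLC4A1 fell by 3.04 ± 0.82 on the log2 scale (adjusted p = 0.00748) and SPTB differed by -3.33 ± 1.21 (adjusted p = 0.0368), where 19.2% of all genes fell and 22.8% rose (42.0% in all). Both were lower around copper in all 4 rabbits, as were 26.0% of all genes, with 27.2% higher. No member's groups were apart, against 18.4% of genes wholly lower and 21.8% wholly higher. SLC4A1 lost this call without Turned Cu replicate 4 (adjusted p = 0.0650), and SPTB lost it without Sham replicate 3 or 4 or Turned Cu replicate 2 or 4 (adjusted p at most 0.125). DESeq2 called the same 2 genes. In the authors' deposited table SLC4A1 (q = 0.00238) and SPTB (q = 0.0177) also had a q under 0.05 between Sham and Turned Cu, as had 17.6% of its genes. All 3 copper comparisons share the Turned Cu libraries.

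**Figure D3:**
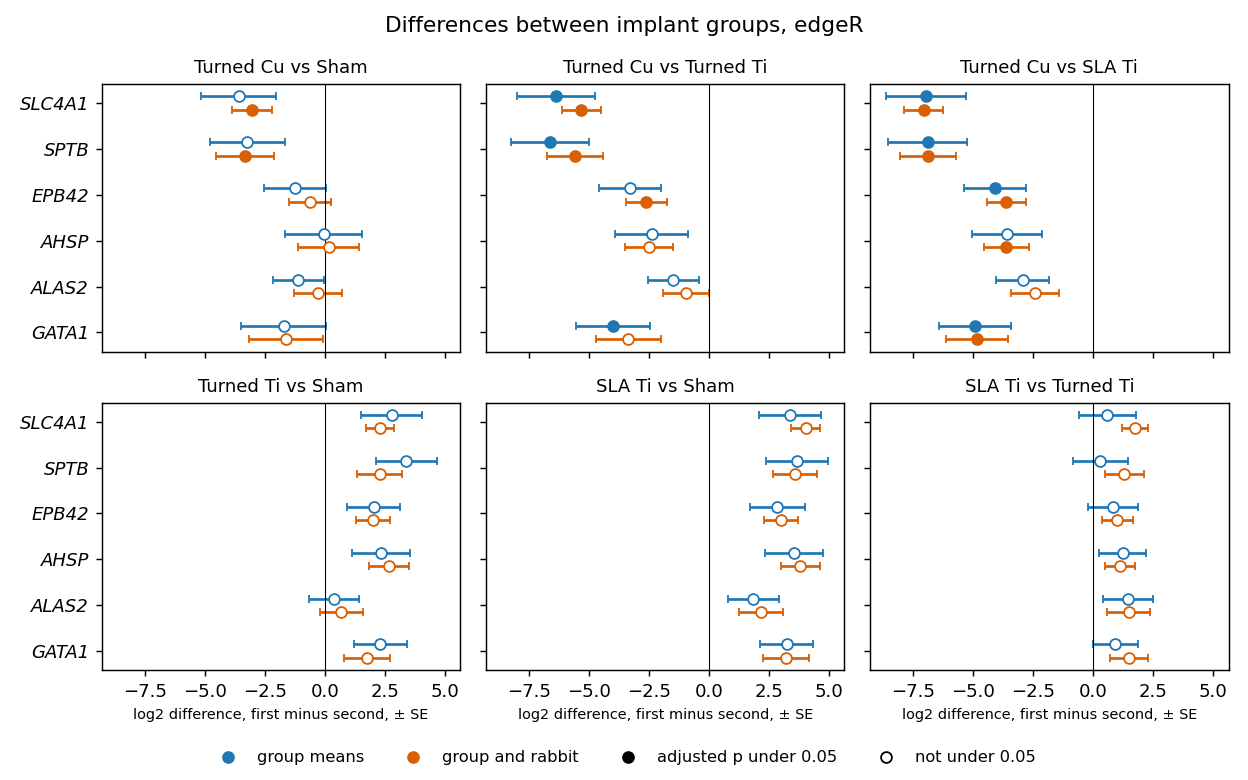
Log2 differences of the 6 members in the 6 comparisons of groups, with SE as bars, from edgeR with group means and with group and rabbit. Filled points have an adjusted p under 0.05. Filled points stand only in the 3 copper comparisons, and the bars are mostly shorter with rabbit in the model.

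Neither titanium group differed from Sham in any member by the edgeR test, in which 0% of all 11617 genes passed. All 6 log2 differences were positive in both comparisons, which share the Sham libraries. In SLA Ti against Sham they ran from 1.83 ± 1.06 for ALAS2 to 3.67 ± 1.29 for SPTB (adjusted p = 0.177 to 0.461). Of the members 5 had an unadjusted p under 0.05, as had 14.3% of all genes. DESeq2 called 0 members there, of which 2 had no adjusted p, with 353 genes called in all. In Turned Ti against Sham the differences ran from 0.38 ± 1.03 for ALAS2 to 3.39 ± 1.27 for SPTB, with an adjusted p of 1 for each. Here 3 members and 2.5% of all genes had an unadjusted p under 0.05, and DESeq2 called 0 genes.

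Within rabbits the SLA Ti site held more SLC4A1 than the Sham site in 4 of 4 animals, by 2.84 to 4.73 on the log2 CPM scale. SPTB, EPB42, ALAS2 and GATA1 were also higher in 4 of 4 animals, and AHSP in 3, with no read at either site of rabbit 3. Of all genes 17.0% were higher in SLA Ti in all 4 rabbits. With rabbit as a block SLC4A1 had the smallest p of all 11617 genes in SLA Ti against Sham (4.02 ± 0.61, edgeR unadjusted p = 7.7e-06), but its adjusted p of 0.0846 did not pass, and 0% of genes did. Without Turned Ti replicate 3, a library outside the contrast that enters the shared spread, 2.76% of genes passed, with SLC4A1, SPTB, EPB42 and AHSP among them (adjusted p = 0.0114, 0.0241, 0.0386 and 0.0399). Without Turned Cu replicate 3 or 4, SLC4A1 alone of the members passed (adjusted p = 0.0283 and 0.0480), where 0.0168% and 0.0335% of genes did. In the authors' deposited table SPTB (q = 0.00392) and GATA1 (q = 0.00591) had a q under 0.05 between Sham and SLA Ti, as had 1.91% of its genes.

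SLA Ti and Turned Ti were not separated in any member. The log2 differences ran from 0.28 ± 1.15 for SPTB to 1.45 ± 1.05 for ALAS2, and edgeR and DESeq2 called 0 members (of all genes, edgeR 0% and DESeq2 105). No member had an unadjusted p under 0.05 in the edgeR fit, against 9.02% of all genes. With rabbit as a block 0 members and 0.00861% of genes passed, with SLC4A1 at 1.73 ± 0.55 (unadjusted p = 0.00655, edgeR adjusted p = 0.558). Within rabbits the SLC4A1 difference on the log2 CPM scale had a mean of 1.84 and reached 3.04. Without the block the fitted SLC4A1 difference had a 95% interval of -1.72 to 2.90. That interval is a normal approximation from the SE and is not the one of the F test. SLC4A1 was higher in SLA Ti in rabbits 1, 2 and 3 and level in rabbit 4, at 134 CPM in both. Its levels ran in the order SLA Ti, Turned Ti, Sham and Turned Cu in 3 of 4 rabbits, and in 4 of 4 by deposited RPKM or unscaled CPM. The other members showed this order in 1 or 2 rabbits by scaled CPM. EPB42 showed it in 3 by deposited RPKM, by unscaled CPM and by CPM without ribosomal and mitochondrial genes. It was read from SLC4A1, so the 0.250% of all genes that showed it in at least 3 rabbits is given as a description.

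The rabbits differed from each other in these genes. Over the 12 libraries without copper, mean log2 CPM of SLC4A1 was 6.13 in rabbit 4, 4.55 in rabbit 1, 2.22 in rabbit 2 and 0.56 in rabbit 3. Rabbit 4 was the highest and rabbit 1 the next for all 6 members. Rabbit 3 was the lowest for all but GATA1, for which rabbit 2 was lower. This full order, 4, 1, 2 and 3, held for 6.45% of all genes. The rabbit term of the blocked edgeR fit, tested after the values were seen, passed for SLC4A1 (adjusted p = 0.00217) and for no other member (EPB42 0.0584, AHSP 0.0654, SPTB 0.147, GATA1 0.568, ALAS2 0.715), where 0.379% of all genes passed. Rabbit 4 also gave Turned Ti and SLA Ti libraries with high shares of ribosomal RNA, at 49.6% and 44.8%. In rabbit 1 these shares were 0.349% and 5.23%, with members summed to 110 and 302 CPM beside 361 and 398 CPM in rabbit 4. The part of library quality in the rabbit differences was not tested.

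The end of the tibia, proximal or distal, gave no called member in a model with group and rabbit, in which 0% of all genes passed. ALAS2 had the largest difference, at -1.23 ± 0.66 for proximal against distal (adjusted p = 0.958). No member had an unadjusted p under 0.05 with edgeR and 1 had with DESeq2, which called 0 members and 3 genes. SLC4A1 and SPTB differed by 0.01 ± 0.38 and 0.00 ± 1.07.

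Member levels went together from library to library. Over the 12 libraries without copper, Pearson's r of log2 CPM between pairs of members was 0.610 to 0.975, with a median of 0.885 over 15 pairs. After group means were taken away it was 0.451 to 0.963. ALAS2 was the least close, with r of 0.610 to 0.947 to the other 5. Without SLA Ti replicates 1 and 4, which lay farthest from the median, r was 0.449 to 0.965. The libraries share rabbits and their scaling, so these values are a description.

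Among the 10 genes whose log2 CPM was closest to the mean of the members over 16 libraries were TSPAN33, ANK1, MPP2, ARHGEF37, DMTN, TMCC2, CACNA1B, PIGQ and HECTD4, with r of 0.979 for TSPAN33 and 0.936 for HECTD4. ANK1 (ankyrin) and DMTN (dematin) are parts of the same membrane skeleton. ANK1 averaged 2.60 CPM in Sham, 21.5 in Turned Ti, 25.1 in SLA Ti and 0.507 in Turned Cu. TSPAN33 had no read in any copper library and was at least 34.3-fold higher in SLA Ti, against a floor of 3 reads over the group. That bound comes from pooled reads and covers counting error only, not the spread between rabbits. The genes were picked over libraries that include copper, so their levels by group follow from the choice and are a description. On deviations from group means the closest 10 were TSPAN33, ANK1, MFHAS1, DMTN, MPP2, TRIM58, TRIM10, ARHGEF37, ERMAP and TSPO2 (r of 0.962 to 0.918). With 8836 genes compared, TSPAN33, ANK1, DMTN, MPP2 and ARHGEF37 stood in both lists of 10.

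Other genes of the red cell membrane and skeleton were lower around copper than around titanium in part, but none was called lower than in Sham. Their sum was 142.9 to 177 CPM in Turned Cu, above the 73.5 to 142.1 CPM of every Sham library. Around copper, against SLA Ti, 7 of 16 tested genes fell and 1 rose, with a median of -2.70 (-2.47 with RHAG and XK, which had no copper read, at their bounds). ANK1 fell by 5.54 ± 1.48 (adjusted p = 0.010), and XPO7, a nuclear export receptor needed in late erythroid maturation in mice, differed by -1.86 ± 0.49 (0.00951). MPP1, a membrane scaffold that white cells also make, rose by 1.48 ± 0.33 (0.00383). Against Turned Ti 4 of the 16 fell and 2 rose, and against Sham 0 fell and 2 rose, MPP1 and the glucose transporter SLC2A1 (3.08 ± 0.49, adjusted p = 0.000127). Both are part of the summed CPM. Of all genes 15.7%, 19.6% and 19.6% fell in Turned Cu against SLA Ti, Turned Ti and Sham, and 15.3%, 21.1% and 23.2% rose. Of the 16 differences from Sham, 11 were negative and 5 positive, with a median of -0.34 (-0.22 with RHAG and XK at their bounds). In SLA Ti against Sham all 16 differences were positive and 0 passed.

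Among haem synthesis genes 1 rose around copper. ALAS1, the housekeeping counterpart of ALAS2, rose in Turned Cu by 2.39 ± 0.38 against Sham (adjusted p = 0.000124), by 1.99 ± 0.37 against Turned Ti (0.000524) and by 1.57 ± 0.37 against SLA Ti (0.00485). It was the only haem synthesis gene of 12 tested that rose in these comparisons. Against SLA Ti 5 fell, among them ABCB10 (-2.77 ± 0.52, 0.00109), ALAD (-2.04 ± 0.49, 0.00526) and PPOX (-2.32 ± 0.56, 0.00544). ALAD and PPOX are enzymes of the pathway and ABCB10 is a transporter of the mitochondrial inner membrane. Against Turned Ti 5 fell and against Sham 2 fell, ABCB10 and PPOX. The shares of all genes that fell against SLA Ti, Turned Ti and Sham were 15.7%, 19.6% and 19.6%, and 15.3%, 21.1% and 23.2% rose. The list median was -1.38 against SLA Ti and -0.44 against Sham.

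Erythroid regulators did not share a direction. In Turned Cu against SLA Ti 4 of 16 fell, the transcription factor SOX6 (-5.09 ± 0.83, adjusted p = 0.000470), the erythropoietin receptor EPOR (-3.99 ± 0.97, 0.00603), the cell cycle factor TFDP2 (-2.58 ± 0.74, 0.0148) and the stem cell factor receptor KIT (-1.90 ± 0.66, 0.0365), and 1 rose. Against Sham 1 fell, SOX6 (-4.77 ± 0.84, 0.000273), and 5 rose, among them the kinase JAK2 (2.72 ± 0.57, 0.00108), STAT5B (1.56 ± 0.33, 0.00112) and LMO2 (0.92 ± 0.26, 0.00892). JAK2 and STAT5B carry the erythropoietin signal but also many cytokine signals in white cells. Against Turned Ti 2 fell and 4 rose. All genes called in either direction made up 31.0% against SLA Ti, 40.7% against Turned Ti and 42.8% against Sham, so these counts are a description. In SLA Ti against Sham all 16 differences were positive, led by E2F2 (2.79 ± 0.80, adjusted p = 0.13), and 0 passed.

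**Figure D4:**
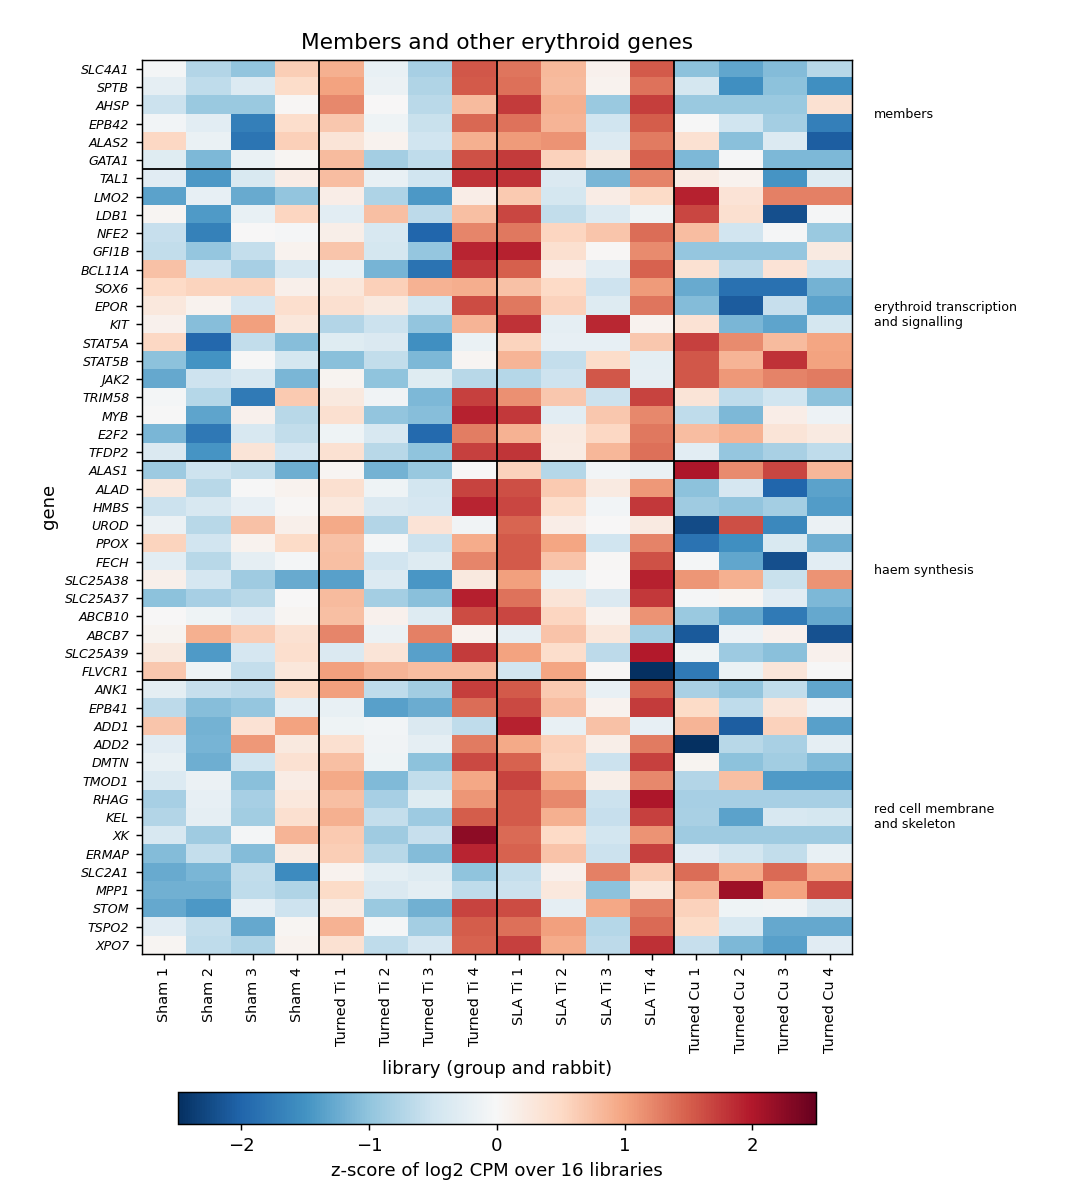
Log2 CPM of the 6 members and of other tested erythroid genes in the 16 libraries, as z-scores over the libraries, grouped by gene list. Members and most membrane genes are high in SLA Ti 1, 2 and 4 and Turned Ti 1 and 4 and low in Turned Cu, while ALAS1, MPP1 and SLC2A1 are high in Turned Cu.

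Haemoglobin and the supply of iron could be followed only in part. The adult alpha and beta globin genes are not analysed here, and HBZ, embryonic zeta globin, had 0 to 2 reads in every library. The row with the symbol GLNB2, described in the table as haemoglobin subunit gamma and looked up by that description, had 261.9, 75.1, 3.8 and 326.6 CPM in Sham and 251.3, 12.7, 49.4 and 3.10 CPM in Turned Cu. It had 256.8, 124.7, 66 and 299.3 CPM in Turned Ti and 1201, 855, 64.7 and 1155 CPM in SLA Ti, so that SLA Ti replicates 1, 2 and 4 stood above all other libraries. Of 4 tested red cell enzyme genes 2 rose in Turned Cu against Sham, CAT (1.28 ± 0.34, adjusted p = 0.00567) and CA2 (1.71 ± 0.53, 0.0154), and 0 passed against either titanium group. Of 7 iron uptake genes 2 rose and 2 fell in Turned Cu against Sham, with the transferrin receptor TFRC up (2.03, 0.00291) and the ferrireductase STEAP3 down (-1.99, 0.00254). Against Turned Ti 0 rose and 2 fell, and against SLA Ti 1 rose and 1 fell. The enzyme and iron counts stand beside 42.8% of all genes called against Sham, 40.7% against Turned Ti and 31.0% against SLA Ti.

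Genes of other marrow cells were read from the same libraries. Granulocyte precursor genes had 11 of 14 listed rows, summed to 17.1 to 708 CPM in Sham, 18.9 to 1545 in Turned Ti, 173 to 2820 in SLA Ti and 435 to 1185 in Turned Cu, and the defining CTSG was at 0 in all groups but SLA Ti. Of 10 tested, 5 fell in Turned Cu against SLA Ti and 0 rose, led by LCN2 (-5.78 ± 1.44, adjusted p = 0.00692), MPO (-5.74 ± 1.49, 0.00863), CAMP (-5.10 ± 1.34, 0.00907) and MMP8 (-5.28 ± 1.68, 0.0245). Against Turned Ti 5 fell and 2 rose, and against Sham 0 fell and 3 rose, the neutrophil genes S100A12, S100A8 and S100A9. Of all genes 15.7% fell against SLA Ti, 19.6% against Turned Ti and 19.6% against Sham, and 15.3%, 21.1% and 23.2% rose. Rabbit 3 was the highest SLA Ti library for this list and the lowest for the erythroid members. Over the 12 libraries without copper the list's r with the members was 0.591, and 0.413 without SLA Ti replicates 1 and 4, beside 0.966 and 0.945 for the membrane list and 0.922 and 0.895 for haem synthesis. The part of other marrow cells in the erythroid differences was not tested.

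**Figure D5:**
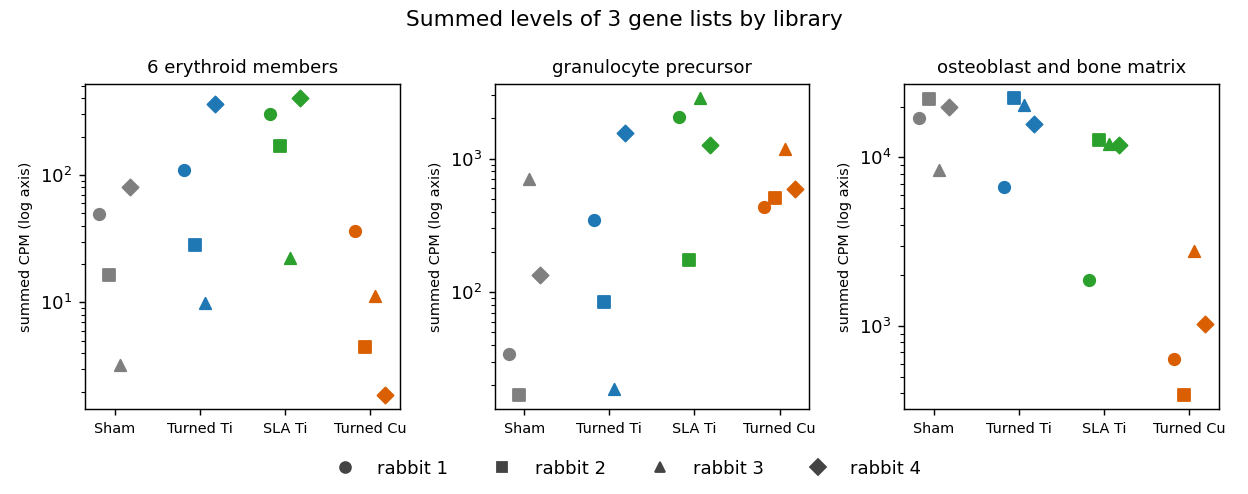
Summed CPM, on a log axis, of the 6 members, of the granulocyte precursor list and of the osteoblast and bone matrix list in each library. Marker shape gives the rabbit. Copper libraries are lowest for the osteoblast genes, overlapping the range of SLA Ti, and lie within the range of the other groups for the granulocyte genes.

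Of mast cell, basophil and eosinophil genes, which share GATA1 with the erythroid line, 8 of 15 had a row and CMA1 and CPA3 were at 0 in all groups. Their sum was 1.08 to 51.4 CPM in Sham, 0.645 to 214 in Turned Ti, 3.59 to 885 in SLA Ti and 0.976 to 2.07 in Turned Cu. The SLA Ti sums were 885, 3.59, 91.3 and 37.9 CPM in replicates 1 to 4, so that 1 library carried most of the signal. The eosinophil peroxidase gene EPX had no copper read. Of 5 tested, 3 fell in Turned Cu against SLA Ti, 2 against Turned Ti and 0 against Sham, where 15.7%, 19.6% and 19.6% of all genes fell. Of 6 megakaryocyte and platelet genes, which share GATA1 as well, 3, 2 and 2 fell in the same order and GP5 rose each time, with the integrin ITGA2B lowest (-5.10 ± 0.71 against SLA Ti, adjusted p = 0.000181). Their sum was 7.53 to 12.6 CPM in Sham, 7.67 to 11.4 in Turned Ti, 7.35 to 30.4 in SLA Ti and 4.74 to 10.3 in Turned Cu, with GP1BA and GP9 at 0 in Turned Cu. The part of these cells in GATA1 was not tested.

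The other lists are set beside all genes, of which 15.7%, 19.6% and 19.6% fell and 15.3%, 21.1% and 23.2% rose in Turned Cu against SLA Ti, Turned Ti and Sham. In the same order, 6, 6 and 5 of 10 stem and progenitor genes (KIT and ERG stand in other lists too) fell and 0 rose, 8, 8 and 10 of 12 endothelial genes fell and 1 rose, and 6, 9 and 9 of 10 osteoblast and bone matrix genes fell and 0 rose. Of 11 genes of island macrophages, which nurse erythroblasts, 2 rose in each comparison and 5, 2 and 2 fell, with HMOX1 up (6.28 ± 0.76 against SLA Ti, adjusted p = 8.1e-05) and VCAM1 down (-5.23 ± 0.96, 0.00101). Of 6 B cell genes 1, 2 and 1 rose and 1 fell each time. Of 10 cell cycle genes 1, 1 and 3 rose and 2, 2 and 0 fell.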

How the data were processed

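Total RNA of 16 libraries (4 rabbits, 4 groups) was analysed. Per the submitters' processing notes, STAR 2.7.1a and Cufflinks 2.2.1 were used; the build, counter and strand setting are not stated there. The authors deposited a gene table with whole-number read counts, taken as estimated counts, since RPKM exceeded 0 in 191 cells whose count was 0. Its headers, deposited by the authors, also name TPM and RPKM values and the authors' log2 fold changes with p-values and q-values, without a stated test. Those log2 values are positive when the group named last in the comparison is higher, as read from the RPKM.

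Counts were rounded and fitted in R 4.3.3 with edgeR 4.0.16: filterByExpr (minimum count 10) kept 11617 genes, library sizes were TMM-scaled (factors 0.251 to 2.91), and the model held a mean for each group over the 16 libraries (common dispersion 0.206). Groups were compared by two-sided quasi-likelihood F tests, with Benjamini-Hochberg adjustment over all genes and a threshold of 0.05. SE is the absolute log2 difference over the square root of F. Log2 CPM for correlations and figures has a prior count of 2. The code was tested on simulated data. Alternatives were RLE scaling, DESeq2 1.42.0, no filter, no ribosomal and mitochondrial genes, rabbit as a block, block with end of the tibia, only the compared groups, and each library left out, with the block added after the data were seen.

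Same-numbered samples come from the same rabbit, per the labels, so the numbers pair them; correlations of their deviations over the 500 most variable genes ran from -0.296 to 0.477, over 0.1 in 19 of 24 pairs. No pair of libraries was identical, and replicate counts differed by a chi-square of 44.1 to 1150 per degree of freedom. The members and lists were chosen with earlier results of these data known. All members with a row are named, and up to 4 genes of smallest p from each other list, of which 1 is not reported here; GLNB2, SLC25A39, RHAG, XK, EPX and genes named as lying at 0 fall outside that rule and were named after their values or rows were seen. No gene sequences were at hand, so a planned description of promoter motifs was not made. All members with a row passed the filter, so the planned exact test for genes below it was not needed.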

Additional observations from a re-analysis of the deposited data

Results flagged for a closer look

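Within groups of 4 libraries, the highest or lowest value was compared with its nearest neighbour by Dixon's ratio for each member, and 3 of 24 sets stood out. The rate of about 1 in 20 by chance holds for normally distributed values and not for CPM with many zeros. A set with 1 library above 0 is always flagged. SPTB in Sham replicate 4, at 10.8 CPM, lay apart from the other Sham libraries, of which the nearest had 2.2 CPM. AHSP in Turned Cu replicate 4, at 0.344 CPM from 2 reads, was the only copper library with a read. GATA1 in Turned Cu replicate 2, at 0.390 CPM from 2 reads, was likewise the only copper library with a read. The last 2 rest on so few reads that they say little about the library.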

How the results depend on the processing

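Members called in Turned Cu against Sham numbered 0 with group means and 2 with DESeq2, without the filter, with rabbit as a block and with block and end of the tibia; with only these 2 groups in the fit 1 of the 3 members then tested was called. Leaving out single libraries, without or with the block, gave 0 to 2 members there, 2 to 5 in Turned Cu against Turned Ti and 0 to 4 in SLA Ti against Sham. In Turned Cu against SLA Ti the counts were 4 to 6 under the other settings and 3 to 6 without single libraries. In Turned Cu against Turned Ti the counts were 3 or 4 under the other settings. AHSP in Turned Cu against Sham reversed to 0.16 with the block and 0.28 with block and end. SLC4A1 between proximal and distal sites was -0.0028 with RLE scaling, -0.17 with DESeq2, -0.028 without the filter and -0.18 with no replicate block. No reversed value had passed the test, and the cause was not tested. Without single libraries, log2 differences crossed 0 for AHSP (-3.69 to 1.30), ALAS2 (-2.55 to 0.39) and EPB42 (-2.47 to 0.21) in Turned Cu against Sham, ALAS2 in Turned Ti against Sham (-0.43 to 1.05), SLC4A1 (-0.13 to 2.40) and SPTB (-0.17 to 2.26) in SLA Ti against Turned Ti, and SLC4A1 (-0.55 to 0.30), SPTB (-0.92 to 0.38) and GATA1 (-0.17 to 1.47) between the ends of the tibia.

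RLE scaling, DESeq2 and leaving out ribosomal and mitochondrial genes moved the median log2 difference of all genes in Turned Cu against Sham from -0.06 to between -0.20 and -0.21; no member changed direction under these 3 in the copper comparisons. Depth limits AHSP and GATA1, with 2 copper reads each.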
